A study of Mus musculus with 6 samples.

Results

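Followed here in the liver were 10 genes, chosen by their symbols as a pathway around Ugdh, an enzyme named in the study's title. Their products supply, move or spend UDP-glucuronate, or release glucuronate and convert it further, to ascorbate among others. They were Ugp2, Ugdh, Uxs1, Slc35d1, Gusb, Akr1a1, Rgn, Gulo, Dcxr and Xylb. All 10 were among the 16638 genes measured, and all 10 were among the 10745 that averaged 0.5 FPKM or more over the 6 libraries (FPKM counts fragments per kilobase of gene, with library size divided out). The choice by symbol used no cut on their levels with treatment, but the set was drawn up with earlier results of these data known.

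Liver RNA of obese mice was sequenced in 6 libraries. For 3 of them the mice received hippuric acid (HA, benzoic acid joined to glycine) as intraperitoneal injections of 60 mg/kg, with 2 doses a week over 5 weeks, and for the other 3 phosphate-buffered saline (PBS). The labels give neither the strain, sex, age or diet of the mice nor the PBS schedule, and the model is limited to obesity whose origin is not stated. Separate animals are not stated for the libraries, so each p-value reflects only how far these samples scatter, and some of that scatter may be technical.

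PBS replicate 1 stood apart by transcripts of other organs. Its 5 adrenal markers summed to 61.2 FPKM, against 0.197 to 0.351 FPKM in HA libraries and at most 0.391 FPKM in the other PBS libraries, where Hsd3b1, Cyp11a1 and Cyp11b1 were listed at 0. Its 5 muscle markers summed to 41.6 FPKM, against at most 0.971 FPKM elsewhere.

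UDP-glucuronate is the sugar donor from which the liver builds glucuronides of bilirubin, steroids, drugs and other compounds, and from which many cells build glycosaminoglycans. Ugp2 makes UDP-glucose from UTP and glucose 1-phosphate, and Ugdh oxidises UDP-glucose to UDP-glucuronate. Free glucuronate has another fate in the mouse: Akr1a1 reduces it to gulonate, Rgn closes the gulonolactone ring and Gulo oxidises the lactone to ascorbate, a last step that humans have lost. Gulonate that is not used for ascorbate is turned by way of xylulose into a pentose phosphate, with Dcxr and Xylb as the closing enzymes.

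The stretch just before the transcription start is shown for Ugdh and Akr1a1, the pair of members with the smallest p-values for HA against PBS. Both run 5′ to 3′ on the minus strand, hold 250 bases up to the base before the start, and come from RefSeq on build GRCm38.p6, while the authors aligned to GRCm39. Capitals mark matches, on either strand, to the GC box GGGCGG and to the antioxidant response element TGACNNNGC.
Ugdh, chr5:65435843-65436092: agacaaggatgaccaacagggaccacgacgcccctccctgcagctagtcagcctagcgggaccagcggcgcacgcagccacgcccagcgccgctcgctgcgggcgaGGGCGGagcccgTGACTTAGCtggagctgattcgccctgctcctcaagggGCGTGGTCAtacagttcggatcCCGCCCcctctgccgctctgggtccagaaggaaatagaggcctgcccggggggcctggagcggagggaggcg
Akr1a1, chr4:116651675-116651924: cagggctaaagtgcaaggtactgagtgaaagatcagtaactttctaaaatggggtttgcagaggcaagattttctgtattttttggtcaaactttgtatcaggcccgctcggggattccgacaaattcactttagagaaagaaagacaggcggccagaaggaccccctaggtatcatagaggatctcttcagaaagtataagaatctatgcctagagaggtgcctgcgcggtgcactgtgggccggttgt

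The Ugdh stretch was 69.2% G and C and held 2 GC boxes and 2 antioxidant response elements, with these elements beginning 132 and 94 bases before the start and not overlapping a GC box. The Akr1a1 stretch was 46.8% G and C and held no match to either motif, nor to the TATA box TATAAA, the CCAAT box CCAAT or the forkhead core TAAACA. Over the 32851 stretches of this length in the table, the GC box was present in 32.7%, the antioxidant response element in 10.2%, the forkhead core in 12.0%, the TATA box in 12.4% and the CCAAT box in 33.8%. In all, 7 members had an entry there, with 8 stretches because Ugp2 had 2 starts. Slc35d1 was the other member with an antioxidant response element. GC boxes were also found in Uxs1, in Slc35d1 and at both Ugp2 starts. A CCAAT box was found in Dcxr and at 1 of the 2 Ugp2 starts. Such a match describes letters in a window and is no evidence of binding.

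The comparison of HA with PBS asks how liver transcripts differ after hippuric acid, and Ugdh is among the genes that the title names. Transcripts of 4 members, Ugp2, Ugdh, Akr1a1 and Xylb, were lower in every HA library than in every PBS library. None of the 10 passed the test across all genes (limma, Benjamini-Hochberg adjusted, threshold 0.05), where 0.8% of genes tested were called (0.512% lower and 0.289% higher with HA). At an unadjusted p under 0.05, 4 of the 10 were lower and 0 higher, beside 13.1% of genes tested that were lower, and voom on whole fragments recovered from the FPKM values also called 0 with either scaling. Without a trend in the variance prior limma called 1, Akr1a1. For groups that do not overlap, the background was 19.2% of genes lower with HA, against 4 of the 10 members, and 62.8% of genes had a negative log2 fold change, against 8 of the 10. The median log2 fold change of the 10 was -0.34, beside -0.064 over all genes tested. Without PBS replicate 1, 5 of the 10 members lay wholly lower with HA, beside 22.1% of genes tested, and 0 were called by limma. The log2 fold changes were then -0.68 for Ugdh, -0.46 for Ugp2 and -0.66 for Akr1a1. In whole tissue, fewer cells of a type and less RNA per cell cannot be told apart. With 3 libraries in each group, the smallest two-sided p of an exact permutation test is 0.1, and single genes were therefore tested in the model across all genes alone.

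**Figure D1:**
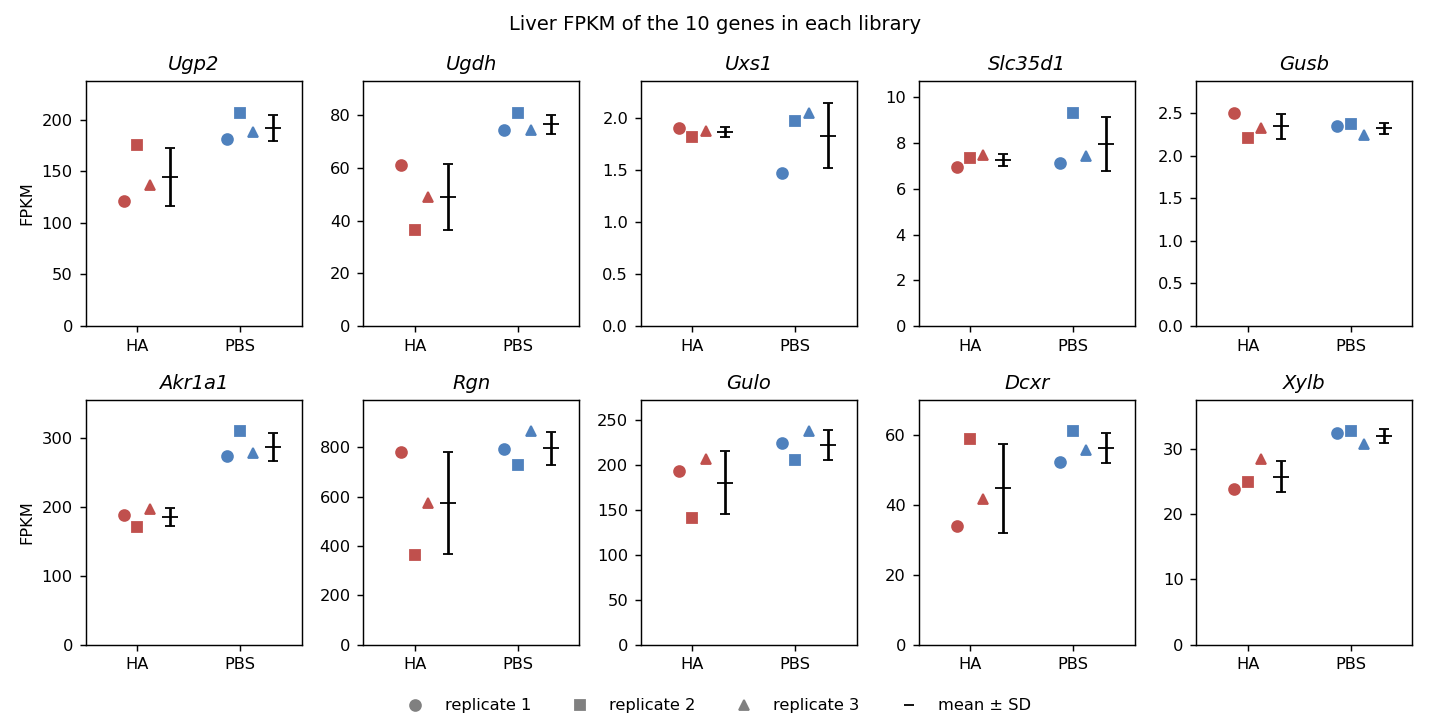
FPKM of each of the 10 genes in the 3 HA and 3 PBS libraries, each panel with its own axis from 0, with symbols for replicates and bars for mean ± SD. Ugp2, Ugdh, Akr1a1 and Xylb show HA values that all lie below the PBS values, while Uxs1, Slc35d1 and Gusb overlap.

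Ugdh, the step that commits UDP-glucose to glucuronate, had 61.1, 36.4 and 49.1 FPKM in HA replicates 1, 2 and 3, against 74.3, 80.8 and 74.3 FPKM in PBS replicates 1, 2 and 3. The PBS values lay close together and the HA values were spread out, with HA replicate 2 the lowest and HA replicate 1 nearest to the PBS libraries. The coefficient of variation was 25.3% in HA libraries and 4.90% in PBS libraries. On the log2(FPKM + 1) scale the fold change was -0.66 (SE 0.18, 95% interval -1.09 to -0.24), which corresponds to 0.631 times on the FPKM + 1 scale, and the threshold was missed (limma adjusted p = 0.130). The values rest on 3492 to 8094 fragments per library.

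Ugp2, which supplies the UDP-glucose, had 121, 176 and 136 FPKM in HA libraries and 182, 206 and 188 FPKM in PBS libraries. Here HA replicate 1 was the lowest and HA replicate 2 came close to PBS, the reverse of the order seen for Ugdh. Its log2 fold change was -0.43 (SE 0.15, 95% interval -0.78 to -0.072, limma adjusted p = 0.212). In GENCODE M21, 2.54% of its exonic bases overlap a gene model on the opposite strand (2.34% of those of Ugdh overlap one on the same strand), and whether the authors counted by strand is not given in the sources used here.

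Of the next members, Uxs1 and Slc35d1 spend or move UDP-glucuronate. Uxs1 removes a carboxyl group from it to give UDP-xylose, which starts the linker of proteoglycans, and it had 1.90, 1.81 and 1.88 FPKM in HA libraries and 1.47, 1.97 and 2.04 FPKM in PBS libraries. The Uxs1 values overlapped, with PBS replicate 1 the lowest of the 6, and the log2 fold change was 0.024 (95% interval -0.23 to 0.28, limma adjusted p = 0.928). Slc35d1 carries UDP-glucuronate and UDP-N-acetylgalactosamine into the endoplasmic reticulum, and it had 6.96, 7.33 and 7.46 FPKM in HA libraries and 7.14, 9.31 and 7.41 FPKM in PBS libraries. Only PBS replicate 2 stood above the rest for Slc35d1, with a log2 fold change of -0.11 (95% interval -0.38 to 0.16, limma adjusted p = 0.650). Gusb, the lysosomal beta-glucuronidase that releases glucuronate again, had 2.50, 2.22 and 2.32 FPKM in HA libraries and 2.36, 2.37 and 2.25 FPKM in PBS libraries. Its groups overlapped throughout (log2 fold change 0.0097, 95% interval -0.20 to 0.22, limma adjusted p = 0.963). For these 3 genes the intervals run from 0.767 to 1.21 times on the FPKM + 1 scale, which understates the room for change of genes as low as Uxs1 and Gusb.

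**Figure D2:**
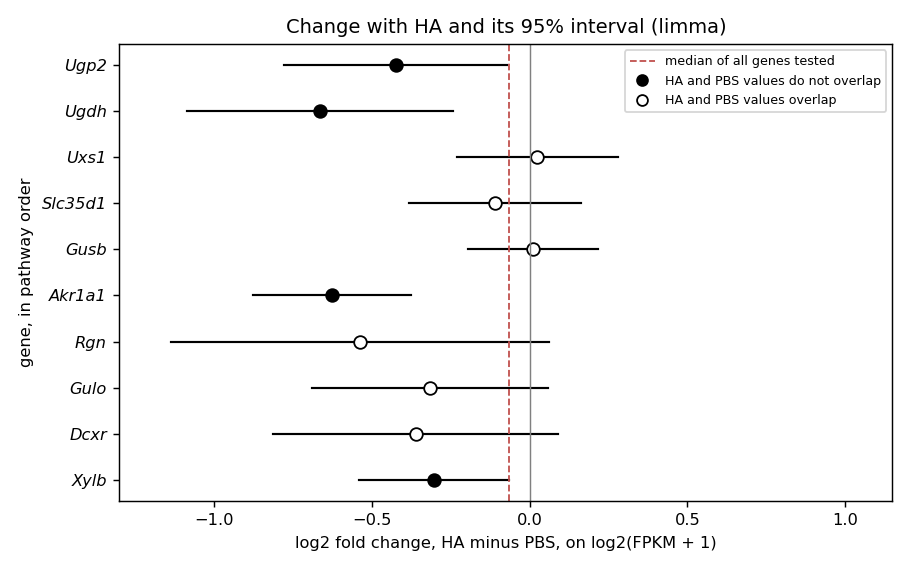
Log2 fold change of HA minus PBS on log2(FPKM + 1) for the 10 genes in pathway order, with 95% intervals from limma, filled where HA and PBS values do not overlap, and a dashed line at the median of all genes tested. Ugdh at -0.66 and Akr1a1 at -0.63 lie farthest below 0, and Uxs1 and Gusb lie at 0.024 and 0.0097.

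Of the enzymes of ascorbate synthesis, Akr1a1 showed the most even difference. Akr1a1 had 188, 171 and 198 FPKM in HA libraries, against 273, 309.7 and 278 FPKM in PBS libraries. The gap between the groups was wider than the range within either, with coefficients of variation of 7.18% in HA libraries and 6.86% in PBS libraries. The log2 fold change was -0.63 (SE 0.11, 95% interval -0.88 to -0.37), 0.648 times on the FPKM + 1 scale, and the limma adjusted p of 0.0543 missed the threshold. By unadjusted p it stood at rank 101 of the 10745 genes, where Ugdh stood at rank 585.

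Rgn, the gluconolactonase also known as SMP30 or regucalcin, was the most abundant member. It had 779.9, 365 and 573 FPKM in HA libraries and 792, 730.3 and 864 FPKM in PBS libraries. HA replicate 1 lay inside the PBS range and HA replicate 2 was at 45.9% of the PBS mean, so the mean difference was carried by HA replicates 2 and 3. The log2 fold change was -0.54 (SE 0.26, 95% interval -1.14 to 0.062, limma adjusted p = 0.321), and -0.25 without HA replicate 2.

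Gulo, which completes ascorbate synthesis, had 194, 141 and 207 FPKM in HA libraries and 225, 205 and 238 FPKM in PBS libraries. The groups met at one point, where HA replicate 3 exceeded PBS replicate 2. Its log2 fold change was -0.32 (SE 0.16, 95% interval -0.69 to 0.057, limma adjusted p = 0.345), and -0.15 without HA replicate 2. Ascorbate itself was not measured.

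On the branch to pentose phosphates, Dcxr, which reduces L-xylulose to xylitol, had 33.9, 58.8 and 41.6 FPKM in HA libraries and 52.4, 61.0 and 55.7 FPKM in PBS libraries. HA replicate 2 lay among the PBS values, and the other HA libraries lay below them. The log2 fold change was -0.36 (SE 0.19, 95% interval -0.81 to 0.091, limma adjusted p = 0.372), -0.57 without HA replicate 2 and -0.18 without HA replicate 1. Xylb, which phosphorylates D-xylulose, had 23.9, 24.9 and 28.4 FPKM in HA libraries and 32.4, 32.7 and 30.7 FPKM in PBS libraries. Its groups did not overlap, but the difference was small, with a log2 fold change of -0.30 (SE 0.10, 95% interval -0.54 to -0.064, limma adjusted p = 0.192).

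The order of the HA libraries differed between genes of the pathway. HA replicate 2 was the lowest HA library for Ugdh, Akr1a1, Rgn and Gulo, at 47.6%, 59.7%, 45.9% and 63.3% of the PBS mean. It was also the lowest for Uxs1 and Gusb, at 99.2% and 95.4%, yet the highest for Ugp2 and Dcxr, at 91.5% and 104%. For Ugp2, Dcxr, Rgn and Ugdh HA replicate 1 ran the other way, with Ugp2 at 62.9% and Dcxr at 60.0% of the PBS mean but Rgn at 98.0% and Ugdh at 80.0%. Of the 4 members whose groups did not overlap, Akr1a1 varied least among the HA libraries, between 59.7% and 68.8%. Among the HA libraries the highest value was 2.14 times the lowest for Rgn, 1.74 times for Dcxr and 1.68 times for Ugdh, while among the PBS libraries no member exceeded the 1.39 times of Uxs1.

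**Figure D3:**
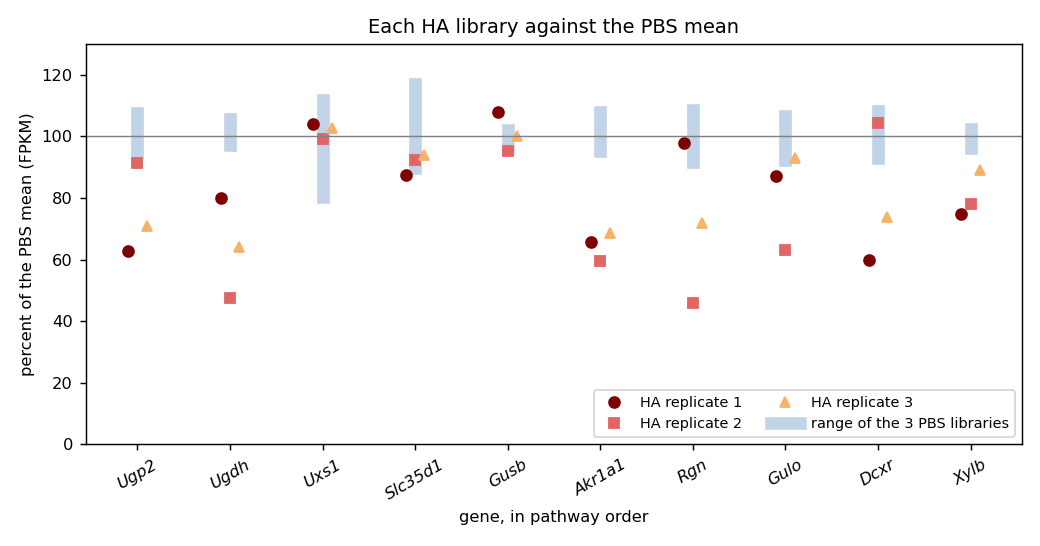
FPKM of each HA library as a percent of the PBS mean for the 10 genes in pathway order, with pale bars for the range of the 3 PBS libraries. HA replicate 2 sits at 47.6% for Ugdh and 45.9% for Rgn but at 91.5% for Ugp2 and 104% for Dcxr.

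By level per length, the members formed the same order in both groups. In HA libraries the means ran from Rgn (573 FPKM) through Akr1a1 (186), Gulo (181), Ugp2 (144), Ugdh (48.9), Dcxr (44.7), Xylb (25.8), Slc35d1 (7.25) and Gusb (2.35) to Uxs1 (1.86 FPKM). In PBS libraries the order was also Rgn (796 FPKM), Akr1a1 (287), Gulo (223), Ugp2 (192), Ugdh (76.4), Dcxr (56.4), Xylb (31.9), Slc35d1 (7.95), Gusb (2.32) and Uxs1 (1.83 FPKM). Neighbours whose ranges overlapped were Akr1a1 and Gulo, Gulo and Ugp2, and Ugdh and Dcxr in HA libraries, and only Gulo and Ugp2 in PBS libraries. Rgn, Akr1a1, Gulo and Ugp2 were thus abundant hepatic transcripts, with Rgn at rank 86 of all 16638 genes by mean FPKM, whereas Gusb and Uxs1 stood at ranks 7325 and 7977. The order depends on the gene lengths used for the FPKM values: these were 2511 bases for Ugdh and 9588 bases for Gusb, where the exons of GENCODE M21 cover 6752 and 4548 bases.

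The 5 genes whose profile over the 6 libraries came closest to that of Ugdh, of 9060 compared, were Ugt1a6a, Ces3a, Pparg, Nfe2l1 and Ldah. Compared were tested genes averaging 1 FPKM or more, with unnamed gene models, pseudogenes and mitochondrially encoded genes left out by symbol. Likeness was the root mean square difference between log2(FPKM + 1) values after subtracting each gene's mean. It was 0.0795, 0.0799, 0.0843, 0.0913 and 0.0961 for the 5 closest genes. Ugt1a6a, for example, had 10.8, 5.53 and 7.77 FPKM in HA libraries and 12.0, 13.1 and 10.9 FPKM in PBS libraries. Among the members Rgn (0.162) and Akr1a1 (0.176) were nearest to Ugdh and Dcxr (0.466) was farthest.

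Neighbouring steps were followed through lists of genes, chosen like the members with earlier results known. Glucuronosyltransferases transfer glucuronate from UDP-glucuronate to bilirubin, steroids and drugs. Of 12 that passed the filter on low values, of 17 listed, 1 fell, 0 rose and 11 did not pass (limma adjusted), 8 had HA values wholly below PBS values (19.2% of genes tested did), and the median log2 fold change was -0.62 (-0.064 over all genes tested). Ugt2b1 fell, at 76.0, 73.2 and 76.5 FPKM in HA libraries and 152, 135 and 150 FPKM in PBS libraries (log2 fold change -0.94, SE 0.10, limma adjusted p = 0.0161). That call was lost without PBS replicate 1, 2 or 3 (limma adjusted p = 0.0977, 0.0542 and 0.110). Ugt2b5, Ugt1a6b and Ugt2b34 averaged 254, 13.6 and 129 FPKM in HA libraries and 394, 21.6 and 209 FPKM in PBS libraries, and did not pass. Members of the Ugt1a and Ugt2b families share exons or close sequence, so their single values are uncertain.

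Other sugar nucleotide users and carriers were followed in the same way. Of 14 tested genes of glycosaminoglycan chain synthesis, of 21 listed, 0 rose or fell and the median log2 fold change was 0.026. Chsy3, a chondroitin synthase, averaged 1.47 FPKM in HA libraries and 0.989 FPKM in PBS libraries, with HA values wholly above PBS values (limma adjusted p = 0.200). Of 3 tested users of UDP-xylose, of 6 listed, 0 passed. Of 12 tested carriers of other nucleotide sugars, of 13 listed, 0 passed and the median was -0.062. Slc35a2, the UDP-galactose carrier, averaged 2.41 FPKM in HA libraries and 3.23 FPKM in PBS libraries. Slc35b4, which carries UDP-xylose, averaged 4.42 FPKM in HA libraries and 5.30 FPKM in PBS libraries. These were the 2 of the 12 carriers with HA values wholly below PBS values (19.2% of genes tested did), and neither passed the threshold.

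**Figure D4:**
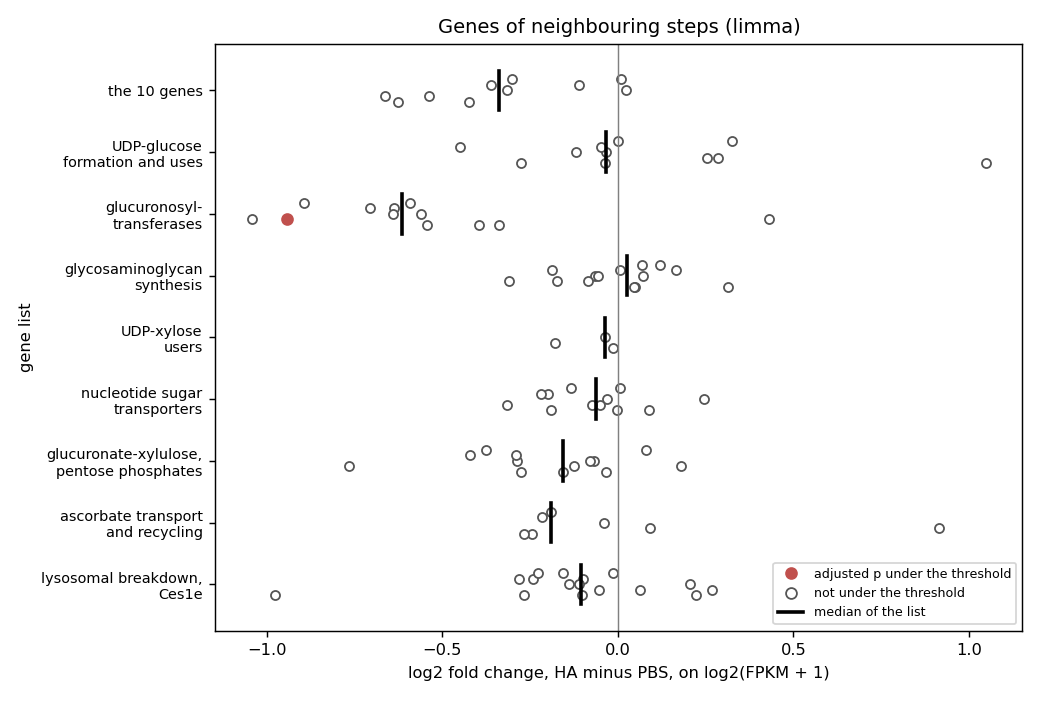
Log2 fold change of HA minus PBS on log2(FPKM + 1) for each tested gene of the 10 and of 8 lists of neighbouring steps, red where the limma adjusted p is under the threshold, with a bar at each list's median. The glucuronosyltransferases have a median of -0.62 and the single red point, Ugt2b1, while glycosaminoglycan synthesis has a median of 0.026.

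Upstream, 11 genes of UDP-glucose formation and its other uses were tested, of 13 listed, and 0 passed, with a median of -0.034. Pgm1, which makes glucose 1-phosphate for Ugp2, averaged 73.1 ± 3.67 FPKM in HA libraries and 88.8 ± 3.65 FPKM in PBS libraries (SD, n = 3 each), with no overlap. Ugcg, which makes glucosylceramide from UDP-glucose, was wholly higher with HA, averaging 6.85 FPKM in HA libraries and 5.23 FPKM in PBS libraries (log2 fold change 0.32, limma adjusted p = 0.286).

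Around the glucuronate-xylulose branch and its exit into pentose phosphates, 13 of 15 listed genes were tested, 0 passed, and the median was -0.16. Sord, the sorbitol dehydrogenase that also oxidises xylitol, had 457, 406 and 601 FPKM in HA libraries and 812, 795 and 853 FPKM in PBS libraries, wholly apart (log2 fold change -0.77, SE 0.16, limma adjusted p = 0.0756). Dhdh and Fggy averaged 40.3 and 10.1 FPKM in HA libraries and 52.7 and 13.7 FPKM in PBS libraries, also without overlap. With Sord they were the 3 of the 13 tested genes that lay wholly lower with HA, where 19.2% of genes tested did. Miox, which opens inositol to glucuronate chiefly in kidney, was under the filter, at 0.0252 to 0.146 FPKM in HA libraries and at most 0.0245 FPKM in PBS libraries.

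Of 7 tested genes of ascorbate transport and recycling, of 8 listed, 0 passed, with a median of -0.19. Slc23a1, the sodium-coupled ascorbate transporter, had 20.3, 8.79 and 11.5 FPKM in HA libraries and 16.6, 14.6 and 14.9 FPKM in PBS libraries, so HA values lay on both sides. Cyb561, an ascorbate-dependent cytochrome, had 5.79, 1.81 and 3.04 FPKM in HA libraries and 1.28, 1.90 and 0.740 FPKM in PBS libraries (limma adjusted p = 0.211). Among 16 genes of lysosomal glycosaminoglycan breakdown, with the beta-glucuronidase anchor Ces1e counted in, all were tested, 0 passed and the median was -0.11. Ces1e, or egasyn, the esterase that holds beta-glucuronidase in the endoplasmic reticulum of mouse liver, had 44.4, 27.8 and 53.2 FPKM in HA libraries and 78.3, 76.3 and 87.1 FPKM in PBS libraries. The groups of Ces1e did not overlap (log2 fold change -0.98, SE 0.22, limma adjusted p = 0.0906), while those of its partner Gusb did. Glb1, the lysosomal beta-galactosidase, was wholly higher with HA, averaging 4.69 FPKM in HA libraries and 3.87 FPKM in PBS libraries (limma adjusted p = 0.317).

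Libraries held between 37921444 and 39908844 fragments, and the 6 hepatocyte markers, Alb among them, summed to 81559 to 93553 FPKM in HA libraries and 58248 to 70423 FPKM in PBS libraries. Alb and Apoa1 were wholly higher with HA, whereas Cyp2e1 was wholly lower, averaging 4382 FPKM in HA libraries and 8142 FPKM in PBS libraries, and 0 of the 6 were called. In the test across all genes 31 genes were higher and 55 lower with HA; rescaling to the signal outside Alb gave 33 and 24, median centring 36 and 32, voom with TMM 28 and 15, and voom with median-ratio scaling 25 and 11. Markers of pericentral hepatocytes were also lower with HA: their summed level was 3735 to 6665 FPKM in HA libraries and 9871 to 10436 FPKM in PBS libraries, and all 8 had HA values wholly below PBS values (19.2% of genes tested did), with Oat called. Cyp2e1 is in this list too and makes up most of its sum. Periportal markers summed to 2965 to 4901 FPKM in HA libraries and 2740 to 3529 FPKM in PBS libraries. Of these 8 markers, 0 had a negative log2 fold change (62.8% of genes tested did), with a median of 0.44. Wholly higher with HA were 2 of them (6.47% of genes tested were), and 0 were called. Kupffer cell markers summed to 76.8 to 148 FPKM in HA libraries and 61.2 to 75.7 FPKM in PBS libraries. Of 5 red blood cell markers, 4 were wholly higher with HA (6.47% of genes tested were) and 3 were called higher (0.289% of genes tested were). The other, Alas2, was wholly lower with HA, averaging 35.1 FPKM in HA libraries and 40.8 FPKM in PBS libraries (limma adjusted p = 0.364). All 5 red blood cell markers summed to 698 to 1319 FPKM in HA libraries and 227 to 335 FPKM in PBS libraries. Bile duct markers summed to 24.7 to 29.1 FPKM in HA libraries and 13.3 to 23.3 FPKM in PBS libraries. Of the 4 tested, 2 were wholly higher with HA, Spp1 and Sox9 (6.47% of genes tested were). Spp1 makes up most of the bile duct sum, averaging 24.5 FPKM in HA libraries and 17.8 FPKM in PBS libraries. Sox9 was low, and Krt19 and Epcam were low and overlapped. Sinusoidal markers summed to 29.3 to 50.5 FPKM in HA libraries and 36.4 to 50.4 FPKM in PBS libraries, and stellate markers to 61.1 to 135 FPKM in HA libraries and 55.1 to 94.2 FPKM in PBS libraries. Kupffer, sinusoidal, stellate and bile duct markers had 0 called genes among 6, 5, 6 and 4 tested. The part of these cells in the members' differences was not tested.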

How the data were processed

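The authors deposited 1 table of FPKM values for 16638 genes in 6 liver libraries, with samples as columns; the unit was inferred from the values. Per the submitters' processing notes, Trimmomatic and HISAT2 were used with GRCm39; for versions, counter, annotation, filters and strand the entry is: not given in the sources used here. The labels' protocols name 2 RNA-seq library kits without saying which made which library. Groups follow the treatment label.

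Whole fragments were recovered from ratios of the deposited FPKM values between libraries: 100.0% of 99828 values were whole within 0.001 fragments, assuming the smallest whole numbers. Fragments are not independent molecules. No 2 libraries were copies (chi-square per degree of freedom at least 31.1).

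limma 3.58.1 (R 4.3.3) was fitted on log2(FPKM + 1), with a variance trend and no term but treatment, on 10745 genes averaging 0.5 FPKM or more. P-values were two-sided with Benjamini-Hochberg adjustment over all of them. Fold changes on this scale understate low genes. The model was tested on simulated data.

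The members and lists were chosen with earlier results of these data known. Named were all members, up to 4 genes per list by smallest unadjusted p (some single genes are not reported here), and the 5 genes most like Ugdh; Ces1e, Miox, Oat and adrenal markers belong to fixed lists, and Miox was named outside the rule after its values were seen. The alternatives were another pseudocount, other filters, no variance trend, other scalings, voom, a replicate block and leaving out each library. The motifs spelled out above were searched in RefSeq promoters (GRCm38.p6).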

Additional observations from a re-analysis of the deposited data

How the results depend on the processing

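The log2 fold change of Ugdh was negative in all 15 alternatives, between -0.84 and -0.47, and passed in 0 of them (limma adjusted p 0.0876 to 0.318). Leaving out HA replicate 1 gave -0.84 and leaving out HA replicate 2 gave -0.47. The count of members called was 0 in 14 alternatives and 1 without the variance trend, where Akr1a1 passed (limma adjusted p = 0.0483); leaving out single libraries gave 0 each time, and the adjusted p of Akr1a1 ran from 0.0483 to 0.189. Leaving out single libraries gave 4 to 6 members wholly lower with HA, beside 22.1% to 28.9% of genes tested, a check chosen after seeing the data. The count over all genes, 86, was 17 with no filter, 57 outside Alb, 43 with voom and TMM, 36 with voom and median-ratio scaling, 16 with a replicate block, and 7 to 117 without single libraries (7 without PBS replicate 1, 8 without PBS replicate 2, 11 without PBS replicate 3, 35 without HA replicate 1, 37 without HA replicate 3). The cause was not tested. Deviations of same-numbered libraries had correlations of -0.138, -0.125 and 0.176, so the numbers are not taken to pair them, and HA replicates 1 and 2 correlated best with another number; with the replicate block Ugdh had an adjusted p of 0.214 and Ugt2b1 of 0.0668. Changes of sign occurred near 0: without single libraries Uxs1 gave -0.070 to 0.081 and Gusb -0.024 to 0.038. Gxylt1 was 0.049 after median centring, 0.043 outside Alb, 0.071 with either voom fit and -0.11 to 0.088 without single libraries. Slc23a1 ran from -0.56 to 0.00017 and Glrx from -0.39 to 0.072 without single libraries.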
